A study of Caenorhabditis elegans with 12 samples.

Results

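The insulin-like peptide genes of Caenorhabditis elegans were followed through 12 libraries of RNA from whole worms. The members are the protein-coding genes named ins with a number, together with daf-28, that had at least 10 counts in 3 or more libraries. Of 39 such genes in the annotation, 32 met this count, in a table of 46748 genes of which 16618 were tested. All 32 passed the expression filter of the test. The 7 below the count were ins-12, ins-13, ins-15, ins-21, ins-25, ins-31 and ins-39. Their highest count in any library was 9, 3, 5, 6, 6, 12 and 15, in that order, and they were not tested.

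Insulin-like peptides are small secreted hormones, made mainly by neurons and by the intestine, that bind DAF-2, the insulin receptor of the worm. Agonists activate DAF-2, which signals through the phosphoinositide kinase AGE-1 and the AKT kinases and keeps the FOXO transcription factor DAF-16 out of the nucleus. Antagonists lower DAF-2 signalling, and the balance bears on dauer formation, germline growth, stress resistance and lifespan. From earlier work, ins-3, ins-4, ins-6, ins-7, ins-33, ins-35 and daf-28 are taken here as known agonists. Likewise, ins-1, ins-17 and ins-18 are taken as known antagonists. The other 22 members were given no role.

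The libraries form 4 groups of 3, all from hermaphrodites aged 5 days. Strain CF1038 has the daf-16 deletion allele mu86 and was fed either bacteria labelled as RNAi against bcat-1 or bacteria with the empty vector L4440. The gene bcat-1 encodes an aminotransferase of branched-chain amino acid breakdown. Strain TU3311 carries a sid-1 transgene that the labels describe as giving neuronal RNAi, without naming its promoter. It was fed bacteria labelled as RNAi against daf-7, a TGF-beta ligand made by sensory neurons, or L4440. No group without a mutation or transgene was among the samples, so daf-16(mu86) is set here against TU3311 and not against wild type. Library numbers run from 1 to 6 in daf-16(mu86), with vector in 1, 3 and 5 and RNAi in 2, 4 and 6. They run from 7 to 12 in TU3311, with vector in 7, 9 and 11 and RNAi in 8, 10 and 12. Separate cultures are not mentioned in the labels, so a p-value here measures only the spread between libraries, which may be technical. The sample titles carry another code for libraries 1 to 6 than for 7 to 12, and the labels do not say what it stands for. Strain and this title code cannot be told apart.

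Total counts were 30130249 to 45343624 a library, and 1 count was worth 0.0215 to 0.0385 CPM, the unit of all levels here, scaled by TMM (trimmed mean of M-values). The targeted genes were not lower in the libraries labelled as RNAi. The gene bcat-1 had 140 ± 10.2 CPM (SD, n = 3) on vector and 199 ± 29.6 in the bcat-1 RNAi-labelled libraries. The gene daf-7 had 8.89 ± 2.97 CPM on vector and 94.5 ± 55.6 in the daf-7 RNAi-labelled libraries. The gene daf-16 had 83.5 ± 5.42 CPM in daf-16(mu86) and 195 ± 12.7 in TU3311, both on vector. Libraries 7 and 8 stood apart from the rest of TU3311: their correlations with their own groups, across genes, were 0.96 to 0.962, where other pairs within a group reached 0.993. The calls of members in each comparison are also given without them. Levels, group means and overlaps are given with them only.

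The members spanned a wide range of levels. Compared per kilobase of exon, the median member had 1.64 CPM per kb, against 6.38 for the 16489 genes tested with an annotated exon length. Above that median were 7 members. At 10 CPM per kb or more there were 5 members, from 1 to under 10 there were 20, and under 1 there were 7. The highest, ins-19, had 511 times the level of the lowest, ins-9, and 95.9% of the genes tested had less than ins-19. The group means per kb are drawn in the plot of levels, where the order of groups is the same for many members. In 28 of 32 members the lowest group mean was that of daf-16(mu86) on vector, as in 51.4% of all genes tested. The count rule used all 12 libraries, so a gene could meet it through the groups where it was higher. ins-9, ins-11, ins-14, ins-16, ins-20, ins-23, ins-29, ins-32, ins-33 and ins-36 had under 10 counts in all 3 of those vector libraries. All of them but ins-20 are among the 28. Counts of members low in that group, here and in the comparisons below, thus depend in part on the rule. In 19 members both TU3311 means were above both daf-16(mu86) means, as in 35.6% of genes.

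**Figure D1:**
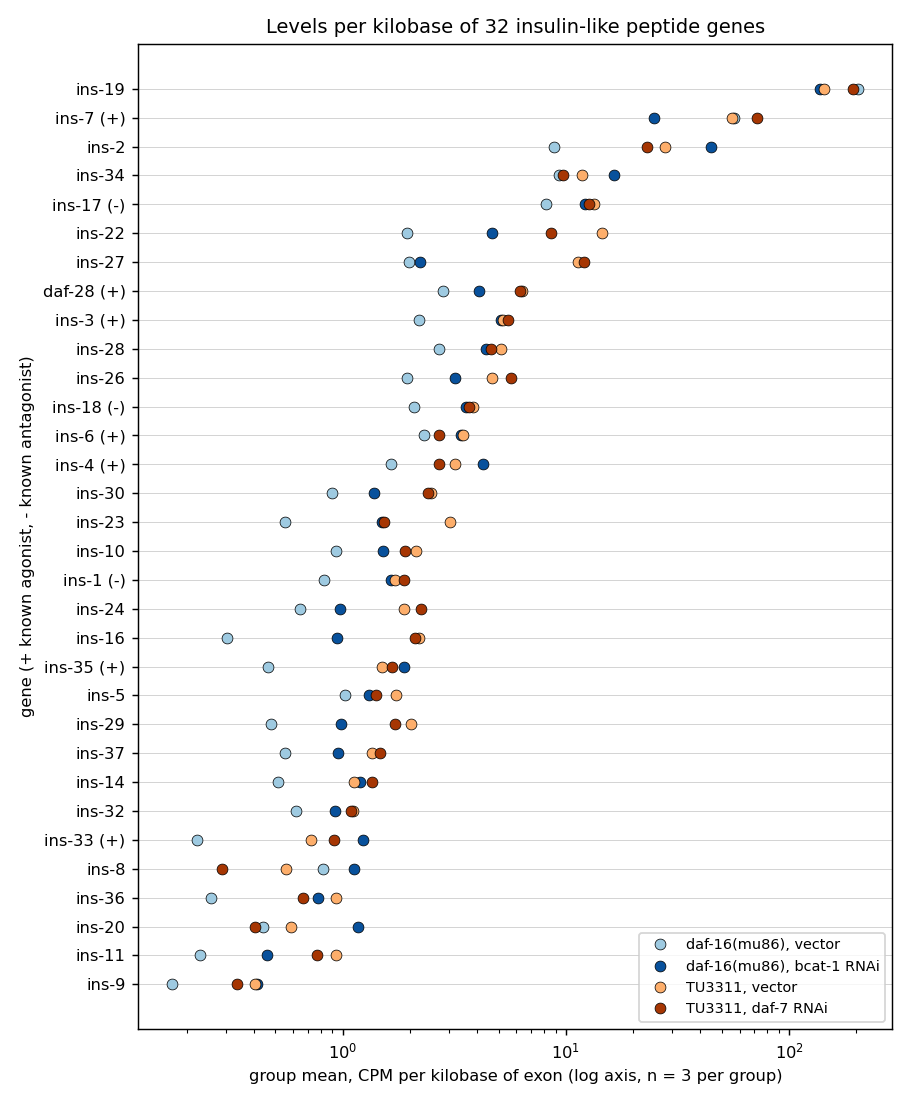
Mean level of each of the 32 members in each of the 4 groups (n = 3 libraries), in CPM per kilobase of exon on a log axis, ordered by the mean of the 4 groups; plus and minus signs mark known agonists and antagonists. ins-19 averaged 170 and ins-9 averaged 0.332 CPM per kb, and the pale blue points of daf-16(mu86) on vector are the lowest in 28 of the 32 rows.

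The 5 highest members were ins-19 at 170, the agonist ins-7 at 52.1, ins-2 at 26.2, ins-34 at 11.8 and the antagonist ins-17 at 11.6 CPM per kb, each the mean of the 4 group means. The last pair was not distinguishable, since single libraries ranged from 4.61 to 21 for ins-34 and from 7.04 to 19.8 for ins-17. ins-19 alone made 27.7% to 64.1% of the CPM summed over the 39 genes, the largest share in every library. On vector in daf-16(mu86), ins-2 made 2.91% to 5.76% of that sum and ins-7 16.8% to 20.4%. In the bcat-1 RNAi-labelled libraries, ins-2 made 19% to 21.1% and ins-7 6.64% to 10.8%. The family sum itself was 107, 148 and 129 CPM on vector and 124, 157 and 107 CPM in the labelled libraries, so the sums overlapped while the shares did not. The 36 genes other than ins-19, ins-7 and ins-2 summed to 23, 24.0 and 26.7 CPM on vector and to 42.7, 43.7 and 43.9 CPM in the labelled libraries. In TU3311 the family sum was 186, 125 and 122 CPM on vector and 221, 158 and 108 CPM in the daf-7 RNAi-labelled libraries.

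Many of the genes lie in clusters (WBcel235 coordinates). On chromosome II, ins-2, ins-3, ins-4, ins-5, ins-6 and ins-20 sit between bases 5988524 and 6011321, a span of 22798 bases. On chromosome I, ins-24 to ins-30 form a group of 7 between bases 14012369 and 14037777. On chromosome III, ins-22 (10026289 to 10026686, plus strand) and ins-23 (10028247 to 10028697, plus strand) lie beside ins-21, which is below the count rule. On chromosome IV, ins-8 and ins-7 (9682011 to 9682845, minus strand) are 1069 bases apart. ins-19 (chromosome II, 3126037 to 3126441, minus strand) lies 599 bases from ins-31 on the other strand, and their counts over all libraries were 27797 and 57. Neighbours could thus differ widely in level. Exons of ins-10, ins-34 and ins-36 overlap a gene on the other strand over 18.9%, 16.2% and 10.5% of their bases, and those of ins-37 overlap other genes over 20.1%. The sources used here do not say whether the counting used strand, so the values of these 4 genes are uncertain.

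In daf-16(mu86), the bcat-1 RNAi-labelled libraries were compared with vector. Of the 32 members, 3 rose and none fell at an edgeR adjusted p under 0.05. Those that rose were ins-2, with no listed role, and the agonists ins-3 and ins-35. They are 9.38% of the members, where 4.18% of all genes tested were called higher and 0.144% lower. The fitted log2 change was positive in 30 members (29 with RLE factors or DESeq2, where ins-27 was negative), against 58.5% of all genes. Its median was 0.80, against 0.16 for all genes, and it ranged from -1.19 in ins-7 to 2.35 in ins-33. The 3 labelled and the 3 vector libraries did not overlap in CPM in 21 members that were higher (65.6%) and in 1 that was lower, ins-7. Over all genes these shares were 29.5% and 25.1%. In bulk RNA of whole worms, a change in the number of cells that make a peptide and a change in its RNA per cell cannot be told apart.

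**Figure D2:**
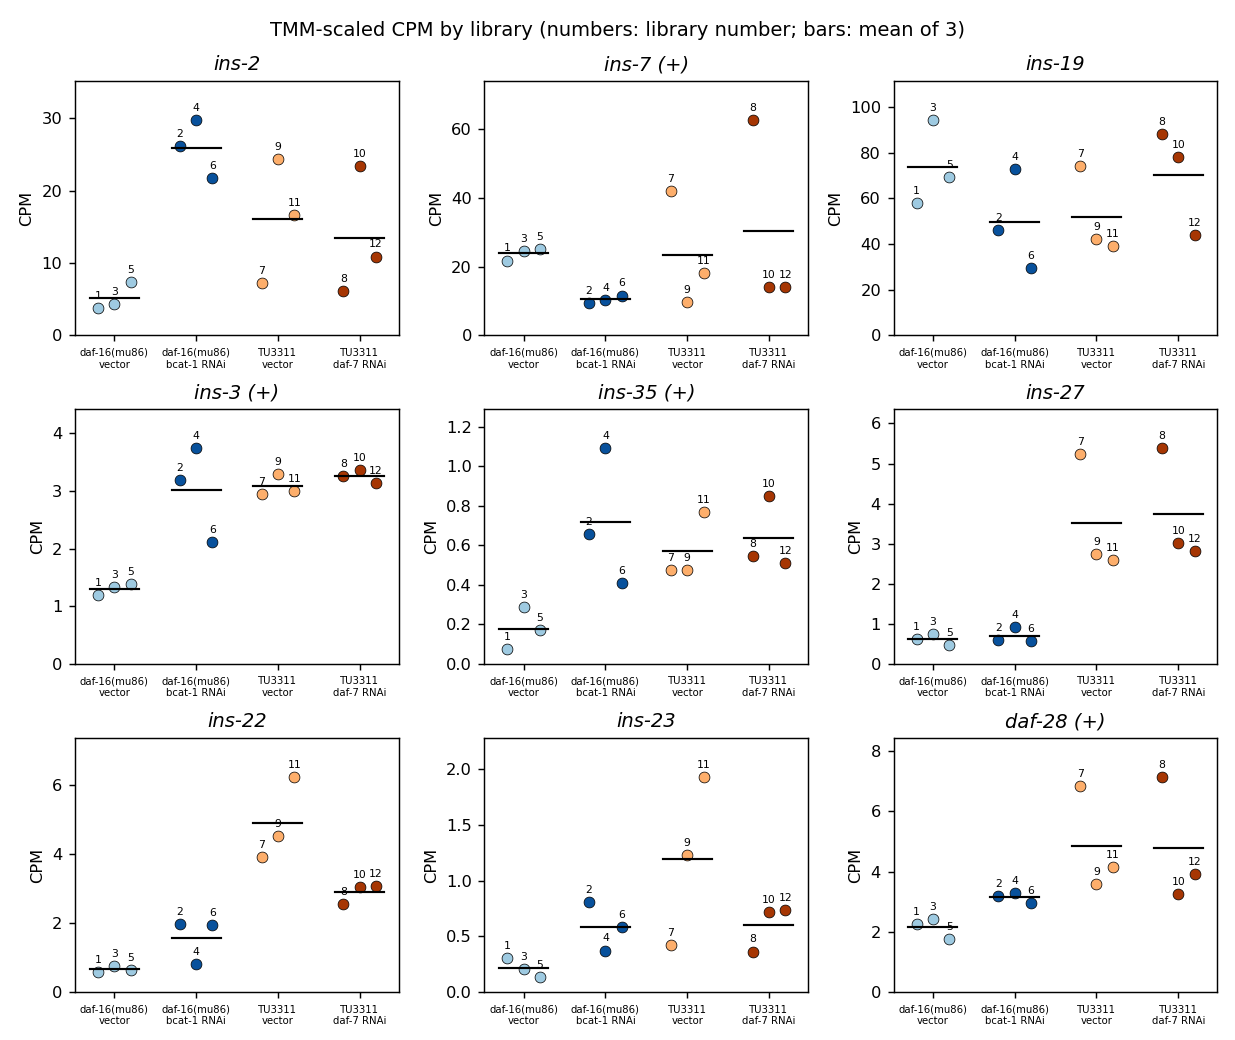
TMM-scaled CPM of 9 members in each library, with the library number above each point and a bar at the mean of 3; plus marks a known agonist. ins-2 lies between 3.73 and 7.41 CPM on vector in daf-16(mu86) and between 21.7 and 29.8 in the bcat-1 RNAi-labelled libraries, while ins-27 lies between 0.476 and 0.92 CPM in the 6 daf-16(mu86) libraries and between 2.58 and 5.38 in the 6 of TU3311.

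ins-2 (chromosome II, 5988524 to 5989426, plus strand) had 3.73, 4.29 and 7.41 CPM on vector, from 97, 165 and 218 counts. In the bcat-1 RNAi-labelled libraries it had 26.2, 29.8 and 21.7 CPM, from 1035, 1037 and 1012 counts. Every labelled library was above every vector library by a wide margin. The gene rose 5.04-fold, a log2 change of 2.33 ± 0.50 (SE) with an edgeR adjusted p of 0.021, which passed under 19 of 23 other settings. In TU3311 ins-2 had 7.22, 24.4 and 16.7 CPM on vector, so library 7 was at the daf-16(mu86) vector level and the other two were not.

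Among the agonists, ins-3 (chromosome II, 5990099 to 5990768, minus strand) is known for promoting germline proliferation in larvae. It had 1.19, 1.33 and 1.39 CPM on vector and 3.19, 3.74 and 2.11 CPM in the bcat-1 RNAi-labelled libraries. The groups did not overlap, and the gene rose 2.3-fold (log2 change 1.2 ± 0.26, edgeR adjusted p 0.022), a call kept in 16 of 23 other settings. ins-35 (chromosome V, 20375536 to 20376302, plus strand) had 0.0769, 0.286 and 0.17 CPM on vector, from 2, 11 and 5 counts. It had 0.658, 1.09 and 0.408 CPM in the labelled libraries, from 26, 38 and 19 counts. These low counts did not overlap, and the gene rose 3.81-fold (log2 change 1.93 ± 0.50, edgeR adjusted p 0.0463), a call kept in 12 of 23 other settings. ins-33, which also promotes larval germline proliferation, had 1, 8 and 3 counts on vector and 19, 35 and 21 in the labelled libraries, or 0.0385, 0.208 and 0.102 CPM against 0.481, 1.01 and 0.451 CPM. Its log2 change of 2.35 ± 0.65 did not pass (edgeR adjusted p 0.0574).

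The agonists ins-4, ins-6 and daf-28 favour reproductive growth over dauer arrest. ins-4 had 0.846, 0.884 and 1.15 CPM on vector and 1.75, 1.7 and 4.04 CPM in the bcat-1 RNAi-labelled libraries, with library 6 far above the others. Its log2 change was 1.38 ± 0.39 (edgeR adjusted p 0.0608). ins-6 had 1.31, 1.17 and 1.12 CPM on vector and 1.9, 1.32 and 2.06 CPM in the labelled libraries, so the groups only just did not overlap. daf-28 had 2.27, 2.44 and 1.77 CPM on vector and 3.19, 3.28 and 2.97 CPM in the labelled libraries, all above vector. None of the 3 passed the test.

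The remaining agonist stood apart from the other 6 in direction. ins-7, an intestinal agonist whose expression DAF-16 is known to repress, had 21.8, 24.7 and 25.1 CPM on vector. In the bcat-1 RNAi-labelled libraries it had 9.36, 10.4 and 11.6 CPM. Both groups were tight and did not overlap, but its log2 change of -1.19 ± 0.56 did not pass in the fit over all 12 libraries (edgeR adjusted p 0.236). In TU3311 the same gene spread from 9.75 to 42.1 CPM on vector, and that spread enters the shared fit. Without libraries 7 and 8 the change was -1.17 ± 0.20 (edgeR adjusted p 0.00236), and with only the 6 daf-16(mu86) libraries the adjusted p was 6.90e-04. The gene fell in those fits.

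All 3 antagonists were higher without overlap, as were 21 of the 32 members and 29.5% of all genes, and none of the 3 passed the test. ins-1 had 0.5, 0.806 and 0.679 CPM on vector and 1.32, 1.38 and 1.25 CPM in the bcat-1 RNAi-labelled libraries. ins-17 had 3.92, 4.37 and 5.37 CPM on vector and 6.48, 6.79 and 7.07 CPM in the labelled libraries. ins-18 had 0.885, 1.01 and 0.815 CPM on vector and 1.62, 1.5 and 1.53 CPM in the labelled libraries. Their log2 changes were 0.97 ± 0.36, 0.57 ± 0.35 and 0.77 ± 0.35, with edgeR adjusted p of 0.137, 0.346 and 0.219. A positive log2 change was found in 6 of 7 agonists, of which 2 passed the test, and in 3 of 3 antagonists, with medians of 1.2 and 0.77. Over all 32 members it was positive in 30 with a median of 0.80, and over all genes in 58.5%. A difference between these roles and the other members was not tested. Summed over the 7 agonists, where ins-7 weighs most, the CPM was lower in the labelled libraries, at 20.5 to 23.6 against 27.5 to 31.1 on vector. Summed over the 3 antagonists it was 9.41 to 9.84 against 5.31 to 6.86.

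**Figure D3:**
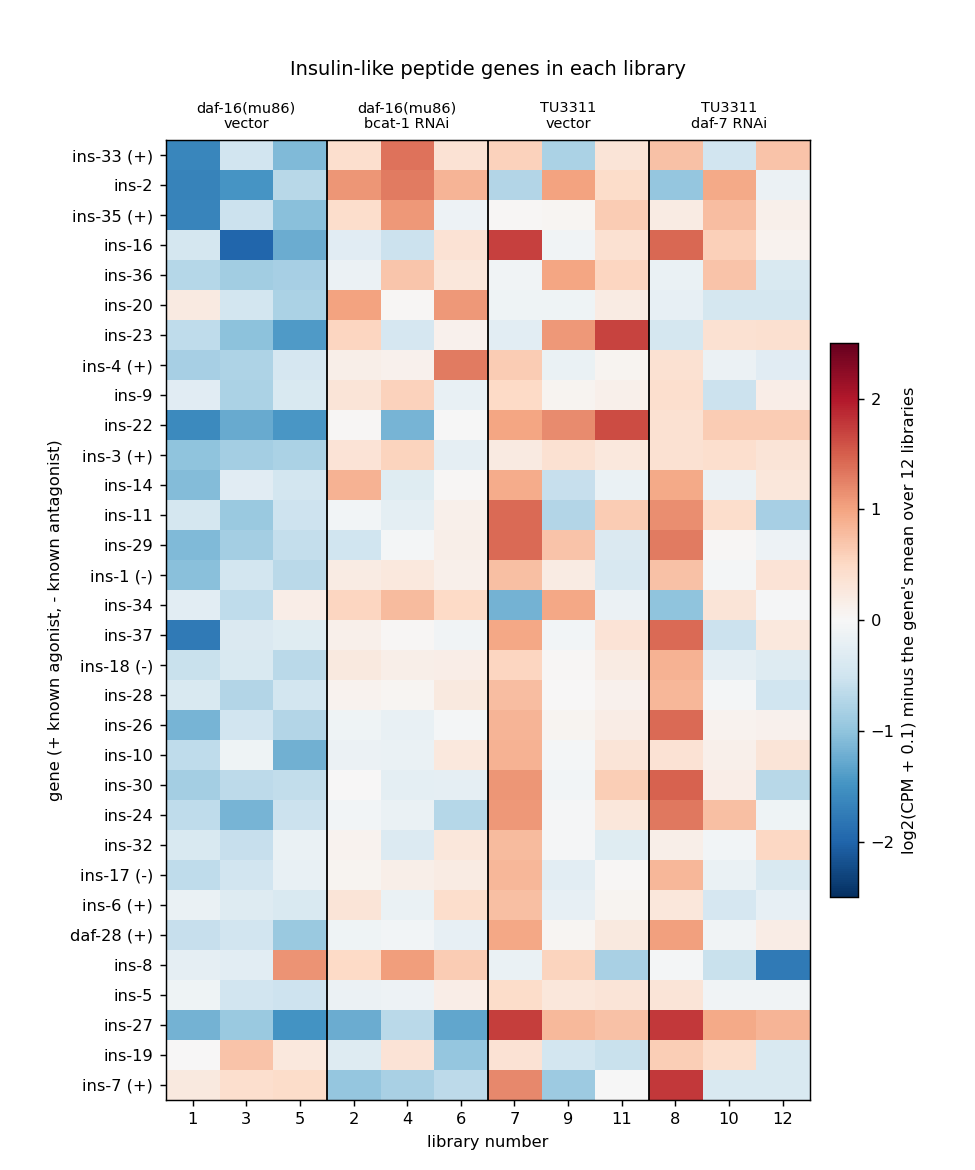
Each of the 32 members (rows) in each of the 12 libraries (columns), coloured by log2(CPM + 0.1) minus the gene's mean over the 12 libraries, red above and blue below it. The 3 vector libraries of daf-16(mu86) are below the gene's mean in most rows but at or above it for ins-7 and ins-19 at the bottom, and libraries 7 and 8 are the reddest in many rows.

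Of the members with no role, ins-19 was the most abundant. It had 58.0, 94.5 and 69.5 CPM on vector and 46.2, 73.0 and 29.5 CPM in the bcat-1 RNAi-labelled libraries, so the groups overlapped, and its log2 change was -0.58 ± 0.37 (edgeR adjusted p 0.359). ins-34 had 4.5, 3.48 and 6.15 CPM on vector and 7.92, 9.43 and 7.76 CPM in the labelled libraries, without overlap and without passing the test. ins-22 had 0.577, 0.754 and 0.645 CPM on vector and 1.97, 0.805 and 1.93 CPM in the labelled libraries. Library 4 was only just above vector, and the log2 change of 1.25 ± 0.35 gave an edgeR adjusted p of 0.06. ins-23 and ins-36 were also higher without overlap, at 0.136 to 0.308 against 0.374 to 0.81 CPM and at 0.13 to 0.154 against 0.278 to 0.575 CPM. ins-27 overlapped, at 0.615, 0.754 and 0.476 CPM against 0.582, 0.92 and 0.559 CPM. The 15 members not described by library lay between 0 and 4.4 CPM in any library, and none of them passed.

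Deviations of neighbouring library numbers from their group means correlated at 0.158 to 0.398 in daf-16(mu86) and at 0.504 to 0.892 in TU3311. With the pair as a block 16 members rose and 2 fell in this comparison. With that block 25.7% of all genes were called higher and 18.5% lower. The 6 daf-16(mu86) libraries alone, without a block, gave 15 higher and 1 lower of 25 members tested (24.0% and 16.5% of genes). The block added the agonists ins-4, ins-33 and daf-28 and the antagonists ins-1, ins-17 and ins-18 to those called higher, and called ins-7 and ins-19 lower. The edgeR adjusted p with the block was 0.00243 for ins-4, 0.00142 for ins-33, 0.0194 for daf-28, 0.0164 for ins-1, 0.0129 for ins-17 and 0.0262 for ins-18. For ins-7 it was 0.00121 at a log2 change of -1.19 ± 0.18, and for ins-19 0.0231 at -0.64 ± 0.19. The other members added were ins-20, ins-22, ins-23, ins-26, ins-28, ins-34 and ins-36, with adjusted p from 0.0139 to 0.0387. Within the 3 neighbouring pairs, 24 members were higher in the labelled library every time, as were 39.5% of all genes, and 2 were lower every time, ins-7 and ins-19, as were 29.3%.

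The calls without the block moved with single libraries. Leaving out library 1, 2 or 3 left no member called, where 0.246%, 1.87% and 0.387% of genes were called higher. Leaving out library 4 left ins-22 alone (0.931% of genes), and leaving out library 5 left ins-2 alone (1.08%). Leaving out library 7 or 8 gave 6 members, adding ins-4, ins-22 and ins-33 (6.67% and 7.43%). Without libraries 7 and 8 together 16 members were higher and 1, ins-7, lower, of 31 tested, where 20.9% and 14.8% of genes were called.

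Other transcripts moved with the same comparison. All 10 pan-neuronal marker genes had a positive log2 change (median 0.80), with 1 called, unc-10 at 1.45 ± 0.26, and their summed CPM was 77.4 to 96.7 on vector and 122 to 146 in the bcat-1 RNAi-labelled libraries. Of 10 genes of ciliated sensory neurons, 9 were positive (median 1.14) and 3 rose, che-13, che-2 and osm-6, with summed CPM of 85.6 to 94.9 on vector and 82.2 to 87.5 in the labelled libraries. Most of that sum was odr-4, the gene with a negative log2 change (-0.30 ± 0.20), at 77.7 to 88.0 and 63.9 to 71.8 CPM. The other 9, set apart after these values were seen, summed to 6.89 to 8.93 and 15.6 to 21.9 CPM, without overlap. None of 8 oocyte genes was positive (median -0.76), none was called, and their sum was 9330 to 11800 CPM on vector and 5590 to 6990 in the labelled libraries. The 8 intestinal genes had 5 positive, none called and sums of 990 to 1210 and 984 to 1230 CPM. The sperm list had 4 of 5 tested genes positive and the embryo list 6 of 10, with none called in either. These calls used all 12 libraries and no block, a fit with 58.5% of all genes positive, 4.18% called higher and 0.144% lower. With the block, 10 pan-neuronal and 9 ciliated genes were higher, and 8 oocyte genes and 1 ciliated gene lower. The intestinal list then had 2 higher and 1 lower, the sperm list 2 higher and the embryo list 1 of each. That fit called 25.7% of genes higher and 18.5% lower. Without libraries 7 and 8, all 10 pan-neuronal and 9 ciliated genes were higher and 8 oocyte genes lower (20.9% and 14.8% of genes). Each other list then had 1 call. No marker of these lists was at 0 in all libraries of a group. Vector libraries also had fewer genes with 10 counts, 13542 to 14693 against 15468 to 16028, and TMM factors of 0.863 to 0.899 against 0.9663 to 1.059. The part of these differences in the members' values was not tested.

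**Figure D4:**
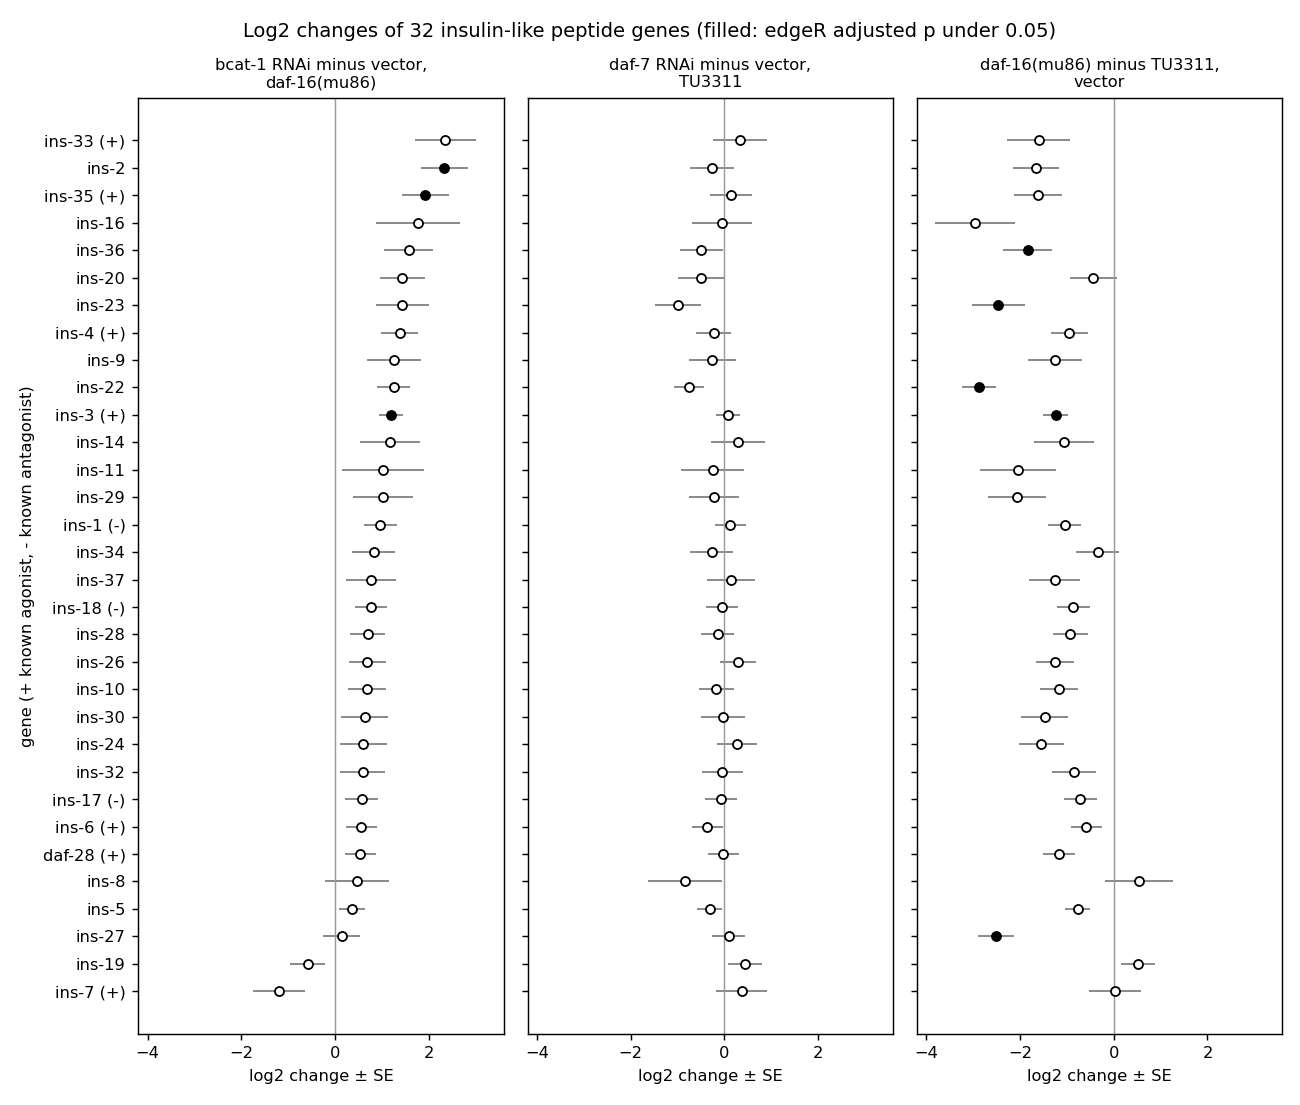
Log2 change with its SE for each of the 32 members in the 3 comparisons of groups, in the order of the first panel; filled points have an edgeR adjusted p under 0.05. Filled points are ins-2, ins-35 and ins-3 in the left panel, none in the middle panel, and ins-36, ins-23, ins-22, ins-3 and ins-27 in the right panel.

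In TU3311, the daf-7 RNAi-labelled libraries were compared with vector, and no member was called by edgeR. None of the 16618 genes was called either (0.0% in each direction), and 77 genes had an unadjusted p under 0.05. DESeq2 called 1 gene higher (0.00602%) and 2 lower (0.012%), none of them a member. Without libraries 7 and 8 edgeR called 1 gene lower (0.00605%), again no member. The fitted log2 change of the members had a median of -0.06, against 0.01 for all genes, and a range of -0.99 to 0.44. It was positive in 11 members and negative in 21, where 52.7% of all genes were positive. This split turned with single libraries, to 22 positive without library 7 and 7 positive without library 8. The groups did not overlap in 2 members, ins-20 and ins-22, both lower, where 0.644% of genes were lower without overlap and 0.65% higher. For ins-20 this rests on few reads, at 9 to 13 counts on vector and 5 to 9 in the labelled libraries. Its lowest vector library had 0.225 CPM and its highest labelled library 0.205 CPM.

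ins-22 had 3.91, 4.53 and 6.23 CPM on vector and 2.55, 3.05 and 3.07 CPM in the daf-7 RNAi-labelled libraries. All 3 labelled libraries were below all 3 on vector, and it was the only member with an unadjusted edgeR p under 0.05 (0.0344, log2 change -0.76 ± 0.32, adjusted p 1). Its neighbour ins-23 had 0.427, 1.23 and 1.93 CPM on vector and 0.365, 0.716 and 0.736 CPM in the labelled libraries, lower in every neighbouring pair but overlapping. The agonist daf-28, known to respond to dauer-inducing conditions, had 6.84, 3.6 and 4.14 CPM on vector and 7.14, 3.26 and 3.93 CPM in the labelled libraries. Its log2 change was -0.02 ± 0.33, the groups overlapped, and libraries 7 and 8 were the highest of each.

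The other agonists and the antagonists overlapped as well. ins-7 had 42.1, 9.75 and 18.3 CPM on vector and 62.8, 14.1 and 14.0 CPM in the labelled libraries, again highest in 7 and 8. ins-3 had a narrow spread, at 2.95, 3.3 and 3.0 CPM on vector and 3.26, 3.37 and 3.13 CPM in the labelled libraries. ins-4 had 2.52, 1.4 and 1.67 CPM against 2.08, 1.41 and 1.28 CPM, and ins-6 had 2.59, 1.28 and 1.56 CPM against 1.85, 1.09 and 1.28 CPM. In both genes the 2 groups overlapped. ins-33 had 0.54, 0.15 and 0.442 CPM against 0.616, 0.212 and 0.608 CPM. ins-35 had 0.472, 0.475 and 0.768 CPM against 0.547, 0.849 and 0.512 CPM. Neither gene separated the groups. The antagonists ins-1, ins-17 and ins-18 had 1.98, 1.33 and 0.837, then 11.0, 5.13 and 6.26, and 2.0, 1.38 and 1.58 CPM on vector. In the labelled libraries they had 1.96, 1.09 and 1.47, then 11.0, 5.49 and 4.73, and 2.55, 1.14 and 1.06 CPM. All 3 overlapped, with libraries 7 and 8 at the top of their groups. Among the most abundant members, ins-19 had 74.2, 42.2 and 39.3 CPM on vector and 88.3, 78.1 and 44.2 CPM in the labelled libraries, higher in every pair but overlapping. ins-2 had 6.11, 23.4 and 10.9 CPM in the labelled libraries, and ins-34 had 2.34, 10.7 and 4.88 CPM on vector and 2.65, 6.79 and 5.34 CPM there. Those 2 were lowest in libraries 7 and 8.

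Libraries 7 and 8 were both above the other 4 TU3311 libraries in 20 members (62.5%), among them ins-7, daf-28, ins-4, ins-6 and all 3 antagonists. Over all genes the share was 39.0%. They were both below the other 4 in 3 members (9.38%), ins-2, ins-23 and ins-34, against 37.3% of genes. Marker sums also spread widely within TU3311: the summed CPM of the pan-neuronal genes spanned 108 to 173 on vector and 113 to 169 in the labelled libraries. Oocyte sums spanned 2640 to 7170 and 2730 to 7350, and sperm sums 4.45 to 18.6 and 5.2 to 20.2. In the daf-7 comparison no gene of any marker list was called, and the part of these lists in the members' values was not tested.

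On vector, daf-16(mu86) was compared with TU3311. Of the 32 members 5 fell in daf-16(mu86) and none rose: ins-22, ins-27, ins-23, ins-3 and ins-36. They are 15.6% of the members, where 6.5% of genes were called lower and 0.132% higher. Of all genes, 38.2% had a positive log2 change. The members' log2 change was negative in 29 (30 with upper-quartile factors or library totals, where ins-7 turned negative). Its median was -1.2 against -0.38 for all genes, and it ranged from -2.96 in ins-16, which did not pass, to 0.54 in ins-8. Both extremes rest on few reads: ins-16 had 0 to 5 counts in daf-16(mu86), and ins-8 had 5 to 19 there and 4 to 16 in TU3311. Without libraries 7 and 8 the median was -0.84, against -0.19 for all genes. Groups did not overlap in 20 members, all lower in daf-16(mu86), against 30.7% of genes lower and 25.8% higher. This comparison and that of the bcat-1 RNAi-labelled libraries use the same 3 vector libraries of daf-16(mu86), and it shares the TU3311 vector libraries with the daf-7 comparison.

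ins-22 showed the clearest gap, with 0.577, 0.754 and 0.645 CPM in daf-16(mu86) and 3.91, 4.53 and 6.23 CPM in TU3311. It was 7.36-fold lower (log2 change -2.88 ± 0.36, edgeR adjusted p 0.00148) and passed under all 21 other settings. ins-27 (chromosome I, 14027236 to 14027588, plus strand) had 0.615, 0.754 and 0.476 CPM in daf-16(mu86) and 5.24, 2.75 and 2.58 CPM in TU3311. It was 5.68-fold lower (log2 change -2.51 ± 0.39, edgeR adjusted p 0.00623) and passed under 20 of 21 other settings. The exception was the fit without library 5, with an adjusted p of 0.103. In ins-22, ins-26 and ins-27 all 6 daf-16(mu86) libraries were below all 6 of TU3311, that is 9.38% of members and 5.53% of genes, and no member had all 6 above, as 2.54% of genes did. ins-23 had 0.308, 0.208 and 0.136 CPM in daf-16(mu86) and 0.427, 1.23 and 1.93 CPM in TU3311, where library 7 was close to the mutant. It was 5.48-fold lower (log2 change -2.46 ± 0.56, edgeR adjusted p 0.0291). The daf-16(mu86) values of ins-23 came from 8, 8 and 4 counts, and its call was kept in 15 of 21 other settings. ins-36 had 0.154, 0.13 and 0.136 CPM against 0.292, 0.725 and 0.512 CPM. It was 3.59-fold lower (-1.84 ± 0.52, edgeR adjusted p 0.0497), at low counts and with a call kept in 7 of 21 other settings.

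Of the agonists, ins-3 fell, at 1.19, 1.33 and 1.39 CPM in daf-16(mu86) and 2.95, 3.3 and 3.0 CPM in TU3311. The groups were far apart for their spread, and the gene was 2.36-fold lower (log2 change -1.24 ± 0.26, edgeR adjusted p 0.0249). The log2 change of daf-28 was -1.17 ± 0.34 (edgeR adjusted p 0.0522), of ins-35 -1.61 ± 0.51 (0.0636), of ins-33 -1.60 ± 0.67 (0.0955) and of ins-4 -0.95 ± 0.39 (0.0918). None of these passed, and neither did the antagonists ins-1 at -1.05 ± 0.36 (0.0739) and ins-18 at -0.86 ± 0.35 (0.0908). ins-7 had a log2 change of 0.03 ± 0.55, with its 3 daf-16(mu86) libraries between 21.8 and 25.1 CPM and inside the TU3311 range of 9.75 to 42.1. Without libraries 7 and 8 it was higher in daf-16(mu86), at 0.77 ± 0.22 (edgeR adjusted p 0.0273), the only 1 of 21 other settings with a call. The TU3311 vector libraries left there, 9 and 11, had 9.75 and 18.3 CPM of ins-7. In the fit without libraries 7 and 8, 13 members fell and 1, ins-7, rose, of 31 tested, where 15.7% of genes were lower and 15.8% higher. Those 13 include the agonists ins-3, ins-35 and daf-28 and the antagonist ins-18.

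This comparison also moved with single libraries. It called 2 members lower without library 1 or 3 (0.305% and 0.516% of genes), 1 without library 5 (0.158%), 8 without library 9 (7.23%) and 20 without library 8 (22.3%). The marker lists moved here as well. None of the 10 pan-neuronal genes was positive (median -0.86) and 2 fell, and 4 of 10 ciliated sensory genes fell (median -1.01). Of all genes 38.2% were positive, the median was -0.38, and 6.5% were called lower and 0.132% higher. All 8 oocyte genes were positive (median 0.97) and none was called. The intestinal list had 1 gene lower, ges-1, and the sperm list 1 of 5 tested, gsp-4. The summed CPM of the oocyte genes was 9330 to 11800 in daf-16(mu86) and 2640 to 7170 in TU3311. Without libraries 7 and 8, 6 pan-neuronal and 5 ciliated genes were lower, and all 8 oocyte genes and 1 ciliated gene higher. The intestinal and sperm lists then had 1 lower each and the embryo list 2 lower. That fit called 15.7% of all genes lower and 15.8% higher. The part of the marker lists in the members' values was not tested.

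**Figure D5:**
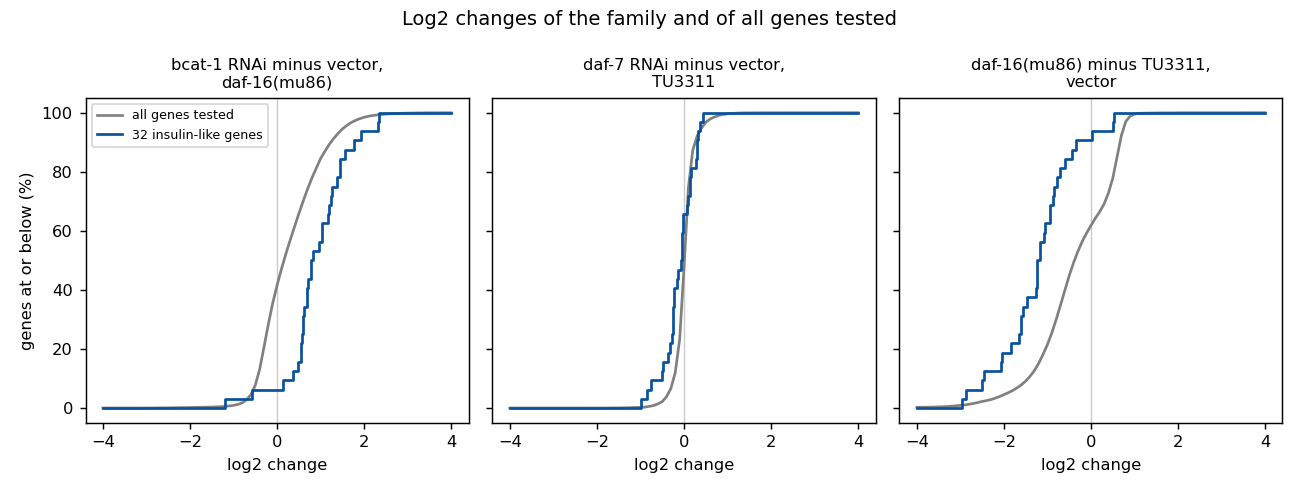
Share of genes at or below each log2 change, for the 32 members (blue steps) and for all genes tested (grey line), in the 3 comparisons of groups. The blue steps lie to the right of the grey line for the bcat-1 RNAi-labelled libraries (medians 0.80 and 0.16), close to it for those labelled daf-7 RNAi (-0.06 and 0.01), and to its left for the strains (-1.2 and -0.38).

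The difference between the response in the bcat-1 RNAi-labelled libraries and that in the daf-7 RNAi-labelled libraries was tested in the same fit. No member was called by edgeR, where 0.102% of genes were higher and 0.00602% lower. An unadjusted p under 0.05 was reached by 9 members and by 12.3% of genes, and DESeq2 called 1 member, ins-2, with 0.65% of genes higher and 0.138% lower. The smallest p was that of ins-22, with a difference of 2.01 ± 0.48 on the log2 scale (edgeR adjusted p 0.113), followed by ins-2 with 2.59 ± 0.68 (0.14). The agonist ins-7 differed the other way, by -1.57 ± 0.79 (0.441). With the pair as a block 13 members were higher and 2 lower, where 15.0% and 11.2% of genes were called. The edgeR adjusted p was then 0.00303 for ins-2, 0.0113 for ins-22 and 0.00673 for ins-7. Without libraries 7 and 8, 5 members were higher and ins-7 lower, against 7.65% and 5.59% of genes. In 6 members, ins-2, ins-6, ins-20, ins-22, ins-23 and ins-36, the labelled library was higher in all 3 daf-16(mu86) pairs and lower in all 3 TU3311 pairs (18.8%, against 6.31% of genes).

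Genes that act before and after the peptides were listed too. Of 10 genes of peptide processing and secretion, none was called in the bcat-1 RNAi-labelled libraries, 8 had a positive log2 change and the median was 0.47, with 6 called higher and 1 lower with the pair as a block, a fit that called 25.7% of all genes higher and 18.5% lower. On vector, 2 of these were lower in daf-16(mu86) than in TU3311, where 6.5% of all genes were. aex-5, a proprotein convertase, had 7.6 ± 0.538 CPM (SD, n = 3) in daf-16(mu86) and 141 ± 41.8 CPM in TU3311 (log2 change -4.22 ± 0.30, edgeR adjusted p 3.06e-05). ida-1, a dense-core vesicle protein, had 23.4 ± 3.57 and 46.4 ± 13.7 CPM (-0.99 ± 0.25, 0.0405). Of 10 genes from the receptor to DAF-16, none was called in the bcat-1 RNAi-labelled libraries, with 4 positive and a median of -0.38, and 5 were lower with the block, where 18.5% of all genes were. The receptor gene daf-2 had 182 ± 10.3 CPM on vector and 121 ± 15.2 CPM in those libraries (-0.59 ± 0.33, edgeR adjusted p 0.305). Between strains, daf-16 itself (-1.22 ± 0.19, edgeR adjusted p 0.00581) and the kinase gene akt-2 (-1.2 ± 0.32, 0.0425) were lower in daf-16(mu86). These are 2 of the 10, against 6.5% of all genes. In the daf-7 RNAi-labelled libraries no gene of either list was called by edgeR.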

How the data were processed

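The authors deposited raw gene counts, and the submitters' processing notes list featureCounts 1.4.6-p4, STAR 2.4.1d and bcl2fastq 1.8.4, with WBcel235 as the build. Annotation release, strand setting and the handling of multimapping reads are not given in the sources used here. The deposited RPKM table was not used.

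In R 4.3.3, counts were tested by edgeR 4.0.16 with its two-sided quasi-likelihood F test. The fit had TMM factors, the default expression filter, a mean for each of 4 groups and 8 residual degrees of freedom. The p-values were Benjamini-Hochberg adjusted over 16618 genes, with a threshold of 0.05. Each SE was computed back from the test, as the absolute log2 change over the square root of F. The steps were run on simulated counts with known changes in the bcat-1 RNAi group only, and with no strain difference, pair effect or outlying libraries. That run thus cannot tell which of the settings compared here is right. Names, exon lengths and coordinates come from the Ensembl annotation of WBcel235.

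Replicates were numbered by library number. The labels state no pairing. Between neighbouring numbers, log2 deviations from the group mean correlated at 0.158 to 0.398 in daf-16(mu86) and at 0.504 to 0.892 in TU3311, so the block rests on the values alone. Alternatives were DESeq2 1.42.0, limma-voom (limma 3.58.1), other scalings and filters, the pair as a block, fits to fewer libraries and leaving out each library. Members and lists were chosen with earlier results of these data known. Values by library are given for members called in any comparison, for known agonists and antagonists and for the 5 highest per kilobase.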

Additional observations from a re-analysis of the deposited data

How the results depend on the processing

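The choice of fit decided how many members were called. For the bcat-1 RNAi-labelled libraries the number higher was 1 with RLE factors (1.79% of all genes), 15 of the 25 tested with the 6 libraries of the comparison alone (24.0%), 16 with the replicate block (pairs of neighbouring library numbers; 25.7%) and 16 without libraries 7 and 8 (20.9%). The number lower was 2 with the block (18.5% of genes), 1 with the 6 libraries alone (16.5%) and 1 without libraries 7 and 8 (14.8%). With the block and without libraries 7 and 8, a setting chosen after seeing the data, 16 were higher and 2 lower (23.8% and 14.9% of genes). Leaving out each library in turn gave 0 to 6 higher, where 0.246% to 7.43% of genes were called higher. Between strains the number lower was 2 with RLE factors (1.46% of genes) and 3 with limma-voom (3.06%). With the 6 libraries alone it was 3 of the 26 tested (3.32%). It was 8 with upper-quartile factors (10.9%), 9 with DESeq2 (10.0%, with 18.5% higher) and 15 with library totals (17.2%). Without libraries 7 and 8, 13 were lower (15.7%) and 1 higher (15.8%). Leaving out each library in turn gave 1 to 20 lower, where 0.158% to 22.3% of genes were called lower. For the difference between the responses, 1 member was higher with DESeq2 (0.65% of genes). With the block 13 were higher and 2 lower (15.0% and 11.2%). Without libraries 7 and 8, 5 were higher and 1 lower (7.65% and 5.59%). With the block and without these libraries, 7 were higher and 2 lower (9.55% and 6.47% of genes). The cause of these moves was not tested. For the daf-7 RNAi-labelled libraries no setting called a member. No block was possible between strains, since each pair holds a single strain. The median log2 change of all genes was 0.16 in the bcat-1 comparison, -0.04 with RLE factors, 0.31 with upper-quartile factors and 0.36 with library totals; between strains these were -0.38, -0.16, -0.71 and -0.66. Of the log2 changes of named members, 1047 values under other settings kept direction and call, 143 passed where the reported fit did not, 48 no longer passed and 13 changed sign. Of these 13, 5 were ins-7 between strains, at -0.38 with upper-quartile factors, -0.30 with library totals, -0.14 without library 5, -0.31 without library 9 and -0.03 without library 11; over all fits that left out 1 library it ranged from -0.31 to 0.77. ins-8 between strains was -0.35 without library 5 (-0.35 to 1.19 over those fits). ins-27 in the bcat-1 comparison was -0.06 with RLE factors, -0.06 with DESeq2, -0.12 without library 4 and -0.05 without library 5 (-0.12 to 0.32). daf-28 in the daf-7 comparison was 0.30 without library 7, 0.19 without library 10 and 0.09 without library 12 (-0.43 to 0.30). Low counts limit ins-8, ins-16, ins-20, ins-23, ins-33, ins-35 and ins-36, among others, where differences between groups rest on few reads. Intervals and tests cover these libraries only.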
